A study of Mus musculus with 8 samples.

Results

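Nucleoporins, importins and exportins were described here in neural progenitor cells (NPC) and in the mouse embryonic stem cells (ESC) they were derived from. The members were all genes whose symbol marks them as a nucleoporin, a karyopherin (importin alpha, importin beta or exportin), or a Ran-binding or Ran-regulating protein. This name rule found 62 genes among the 21202 named genes of the deposited tables, 60 of them in the exon table and 61 in the intron table.

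The nuclear pore complex is a ring of nucleoporins that spans the nuclear envelope and is the passage for proteins and RNA between cytoplasm and nucleus. An outer ring and an inner ring form its scaffold, membrane nucleoporins anchor it, and nucleoporins rich in phenylalanine-glycine (FG) repeats fill the channel. Importins and exportins carry cargo through this channel, and the small GTPase Ran, loaded with GTP in the nucleus and hydrolysing it in the cytoplasm, sets the direction. Several nucleoporins are also known to bind chromatin, and in mouse cells Nup133, Nup153 and Nup210 have been tied to stem cell identity or to neural differentiation.

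The NPC were 1 clone obtained by neural differentiation of the ESC, and the ESC were the hybrid line F1-21.6, so both groups shared the 129Sv-Cast/EiJ background. The ESC grew with serum and leukaemia inhibitory factor on embryonic fibroblast feeders inactivated with mitomycin C. ScriptSeq v2 libraries of total RNA, freed of ribosomal RNA by Ribo-Zero, were sequenced as single 50 bp reads, in a study of topological domains and chromosome folding. Each cell type had 2 biological replicates with 2 technical libraries each, 8 libraries in all. The intron p-values below measure the spread between the replicates of 1 clone and 1 line. No source used here says whether technical libraries were merged before the exon comparison, so the deposited exon p-values may partly rest on technical spread.

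The labels were checked against marker genes in the authors' deposited table. All 6 ESC markers were lower in NPC, with Pou5f1 at 2.94 RPKM in NPC and 1327 RPKM in ESC, and all 5 NPC markers tested were higher, with Olig2 at 448 RPKM in NPC and 0.686 RPKM in ESC. RPKM is a read count scaled to the length of the exons (or introns) and to the depth of the library. Of 7 feeder fibroblast markers, 4 were lower in NPC and 0 higher, with summed levels of 9.64 RPKM in NPC and 29.1 RPKM in ESC. The 4 neuron markers summed to 18.9 RPKM in NPC and 238 RPKM in ESC, with Tubb3 the largest part in NPC and Stmn2 in ESC. No marker of these lists was at 0 in either cell type, and their part in the results below was not tested.

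Most of the transport machinery was lower in NPC at the exon level. Of 57 members with a mean of at least 1 RPKM, the authors' deposited table called 46 lower (80.7%), 3 higher (5.26%) and left 8 not called at an adjusted p-value of 0.05. The same table called 66.2% of all 12509 genes tested this way, 33.9% lower and 32.3% higher. It placed 40 members (70.2%) at least 2-fold lower with a call, against 27.0% of all genes, and 10 of these were at least 4-fold lower. The median log2 fold change (NPC over ESC) was -1.39 over the members and -0.07 over all genes tested, and 39 members lay below the lower quartile of all genes, -1.23. Bulk RNA cannot tell fewer cells expressing a gene apart from less RNA of it per cell. RPKM is also relative to the RNA sequenced, so the amount of RNA per cell was not measured.

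The summed exon level of the tested members in the authors' deposited table was 2523 RPKM in NPC and 6204 RPKM in ESC. The median tested member stood at 24.7 RPKM in NPC and 62.7 RPKM in ESC, where the median of all tested genes was 16.7 RPKM in NPC and 13.8 RPKM in ESC. In NPC 46 members reached 10 RPKM, and in ESC 53 did. The typical transport gene stood less far above the typical gene in NPC than in ESC. Nucleoporins had the larger shift, with 25 of 28 tested called lower and a median log2 fold change of -1.73, against 17 of 24 and -1.25 for the transport receptors (importin alpha, import receptors and exportins together). That difference between the groups of genes is a description and was not tested. Nup210l, Kpna7 and Ranbp3l were below 1 RPKM and were not tested, and the exons of Nup62 and Xpo4 were not analysed here.

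**Figure D1:**
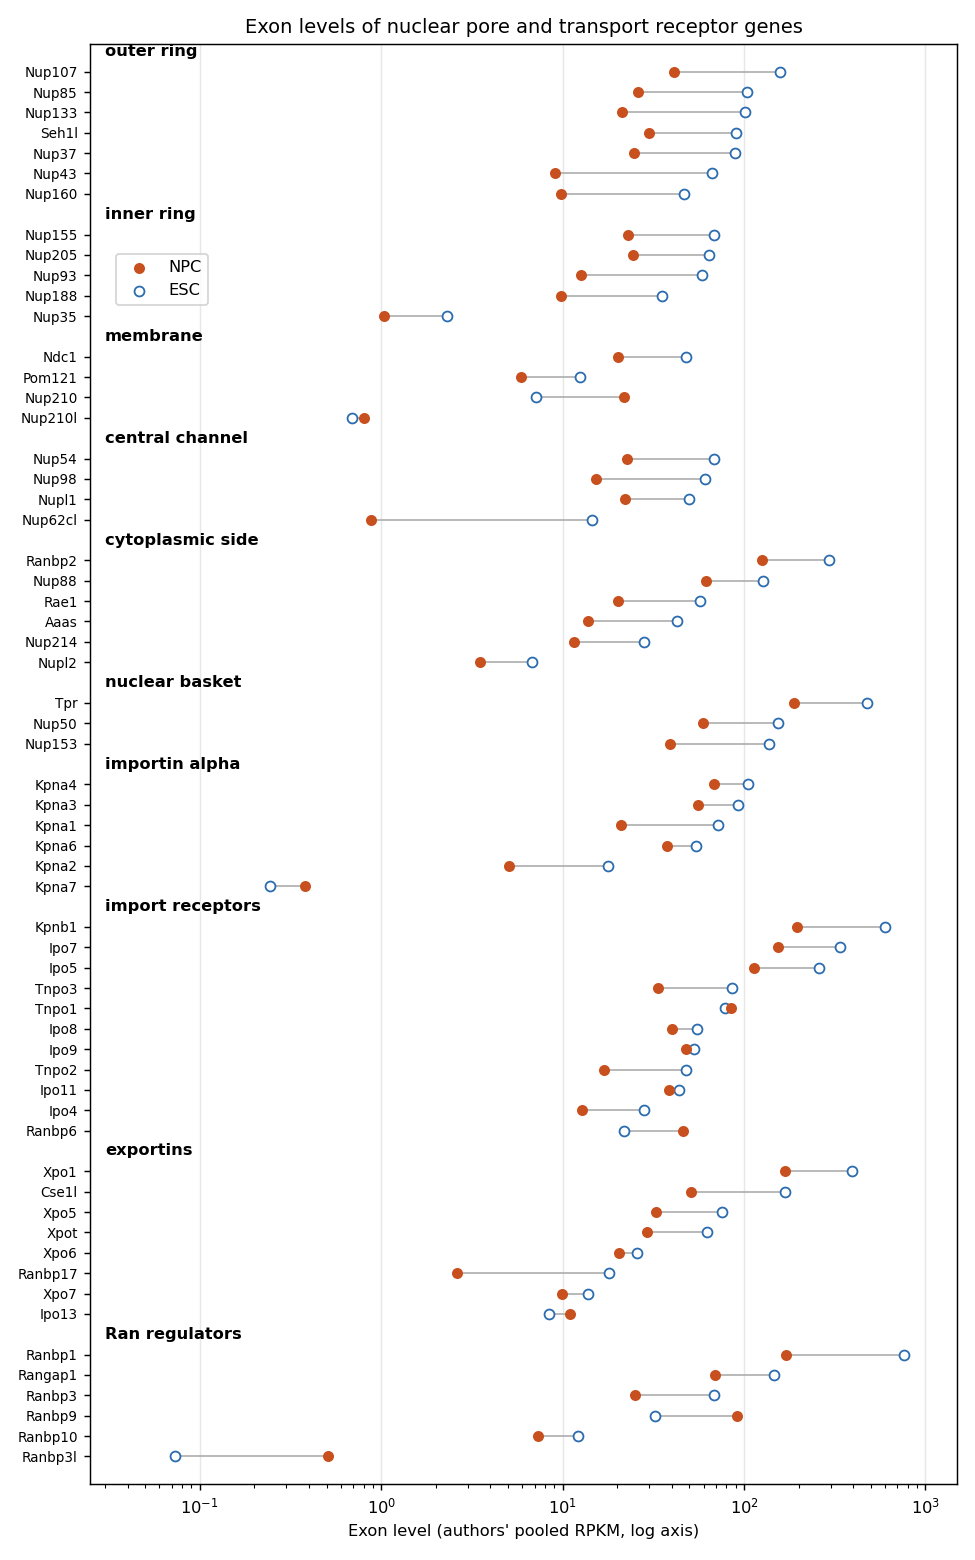
Exon level of 60 members in the authors' deposited table (horizontal log axis, pooled RPKM, no replicate values), grouped by role and ordered within a role by level in ESC, with filled points for NPC and open points for ESC. The NPC point lies left of the ESC point for most genes, and Nup210, Ranbp6 and Ranbp9 are the called exceptions.

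The 3 members called higher in NPC were Nup210, a membrane nucleoporin, Ranbp6, an importin beta family member, and Ranbp9, a scaffold protein found in a ubiquitin ligase complex. Their promoters are shown beside those of the lower members that hold more than 1 kind of the 4 motifs searched, to set the sequences of genes that moved apart next to each other. The windows run 250 bases before to 50 bases after the start annotated by RefSeq (build GRCm38.p6), 5′ to 3′ on the strand of the gene. Capitals mark the motifs, which were searched on both strands: the E-box CACGTG bound by Myc and USF type factors, the ETS site CCGGAAGT, the E2F type sites TTTCGCGC or TTTGGCGC, and the YY1 type site ATGGCGGC. The windows were chr6:91116777-91117076 (minus strand) for Nup210, chr13:43480924-43481223 (minus strand) for Ranbp9, chr19:29812925-29813224 (minus strand) for Ranbp6, chr2:30286166-30286465 (plus strand) for Nup188, chr5:92435150-92435449 (minus strand) for Nup54, chr7:110018065-110018364 (plus strand) for Ipo7 and chr14:55635635-55635934 (minus strand) for Ipo4.
Nup210: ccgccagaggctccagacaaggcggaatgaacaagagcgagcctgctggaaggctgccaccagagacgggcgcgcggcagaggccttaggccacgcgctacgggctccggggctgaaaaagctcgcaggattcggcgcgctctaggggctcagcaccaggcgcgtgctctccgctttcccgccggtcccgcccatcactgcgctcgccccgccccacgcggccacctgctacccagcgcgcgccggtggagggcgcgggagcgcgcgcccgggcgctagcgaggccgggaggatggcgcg
Ranbp9: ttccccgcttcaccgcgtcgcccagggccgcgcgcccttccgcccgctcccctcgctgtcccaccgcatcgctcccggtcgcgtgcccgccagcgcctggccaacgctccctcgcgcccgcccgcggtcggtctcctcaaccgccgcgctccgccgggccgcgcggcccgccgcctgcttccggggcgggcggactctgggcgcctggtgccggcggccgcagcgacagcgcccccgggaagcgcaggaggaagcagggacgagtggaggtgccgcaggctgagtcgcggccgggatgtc
Ranbp6: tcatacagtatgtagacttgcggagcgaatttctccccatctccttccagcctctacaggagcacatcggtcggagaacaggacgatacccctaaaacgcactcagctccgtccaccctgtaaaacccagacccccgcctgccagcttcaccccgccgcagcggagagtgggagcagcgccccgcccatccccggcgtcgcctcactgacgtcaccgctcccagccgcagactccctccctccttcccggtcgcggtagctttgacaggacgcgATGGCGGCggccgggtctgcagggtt
Nup188: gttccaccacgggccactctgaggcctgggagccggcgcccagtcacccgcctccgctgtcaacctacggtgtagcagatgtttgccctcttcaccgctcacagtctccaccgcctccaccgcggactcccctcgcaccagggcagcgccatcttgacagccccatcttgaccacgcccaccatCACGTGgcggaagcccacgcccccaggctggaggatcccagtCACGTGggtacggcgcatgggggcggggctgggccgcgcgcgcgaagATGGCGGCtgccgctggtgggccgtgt
Nup54: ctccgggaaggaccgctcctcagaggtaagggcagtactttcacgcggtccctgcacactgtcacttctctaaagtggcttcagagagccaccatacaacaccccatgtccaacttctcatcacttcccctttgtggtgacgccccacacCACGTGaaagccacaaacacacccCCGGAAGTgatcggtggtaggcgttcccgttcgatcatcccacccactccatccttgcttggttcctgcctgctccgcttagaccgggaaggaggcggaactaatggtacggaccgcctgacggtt
Ipo7: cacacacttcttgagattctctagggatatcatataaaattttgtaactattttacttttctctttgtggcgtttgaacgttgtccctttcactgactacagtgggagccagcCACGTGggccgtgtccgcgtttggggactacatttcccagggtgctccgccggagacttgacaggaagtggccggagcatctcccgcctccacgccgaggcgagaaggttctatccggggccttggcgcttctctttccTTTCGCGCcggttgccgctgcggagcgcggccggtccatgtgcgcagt
Ipo4: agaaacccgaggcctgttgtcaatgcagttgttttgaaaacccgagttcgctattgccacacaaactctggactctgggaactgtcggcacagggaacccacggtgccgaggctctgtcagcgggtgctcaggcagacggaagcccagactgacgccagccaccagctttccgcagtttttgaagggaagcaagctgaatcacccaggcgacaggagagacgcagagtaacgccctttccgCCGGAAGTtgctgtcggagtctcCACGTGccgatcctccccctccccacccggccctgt

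Nup210 and Ranbp9 held none of the 4 motifs in these windows, and Ranbp6 held a YY1 type site. Nup188 held 2 E-boxes and a YY1 type site, with the first E-box starting at base -66 and the YY1 type site at base 23 from the annotated start. Nup54 and Ipo4 held an E-box and an ETS site, and Ipo7 an E-box and an E2F type site. The number of CpG was 41 in Nup210, 50 in Ranbp9 and 27 in Ranbp6, and 28, 17, 24 and 19 in Nup188, Nup54, Ipo7 and Ipo4. The lower members shown were picked for holding motifs and the higher ones were not, so the windows do not compare the groups. Of 36 matched members called lower in exons, 18 held a motif and 18 held none. Of the 3 called higher 1 did, and of the 7 not called 0 did. The share of all tested genes that hold any of the 4 motifs was not counted. A match of letters is a description and not a site of binding, and a window without one says nothing about the factor.

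Over 56 windows of the 49 members that matched by symbol, the E-box was present in 14.3%, against 10.1% of the promoters of all genes tested at the exon level and 7.15% of all promoters in the RefSeq table. The ETS site was present in 10.7% of the member windows, against 7.63% of tested-gene promoters and 3.89% of all promoters. The YY1 type site was present in 14.3%, against 4.59% and 2.24% in the same sets, in Ipo8, Ndc1, Nup188, Nup205, Nup50, Nup88, Ranbp6 and Rangap1. E2F type sites were present in 1.79% of member windows, 1.49% of tested-gene promoters and 0.813% of all promoters. The median number of CpG was 27 in member windows, 20 in tested-gene promoters and 7 in all promoters. No match overlapped one of another motif.

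Intron reads, which come largely from unspliced transcripts, were deposited for each biological replicate. Both tables come from the same libraries, so exon and intron values are given side by side and not as separate evidence. The median tested member had 326 and 381 recovered reads in NPC replicates 1 and 2, against 1125 and 1290 in ESC replicates 1 and 2. NPC replicate 1 also carried reads across genes that neither cell type is known to use. The trimmed mean intron level of 242 olfactory, vomeronasal and taste receptor genes was 0.712 and 0.0957 RPKM in NPC replicates 1 and 2, against 0.0364 and 0.00445 RPKM in ESC replicates 1 and 2. In NPC replicate 1 17 of the 57 tested members lay below 2 times that level, and in the other 3 replicates 0 did. These 17 were Nup133, Nup37, Nup43, Nup155, Nup188, Nup205, Nup93, Ndc1, Aaas, Nupl2, Kpna1, Ipo11, Ranbp17, Xpo5, Xpot, Ranbp10 and Ranbp3. NPC replicate 1 was below NPC replicate 2 in 52 of the 57 members.

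The intron level of most members was also lower in NPC. With limma on log2(RPKM + 1) and a threshold of 0.05 on the adjusted p, 41 of 57 members with a mean of at least 1 RPKM were called lower (71.9%) and 0 higher, where limma called 34.0% of 8811 genes lower and 13.2% higher. At an unadjusted p below 0.05, limma had 43 members lower and 1 higher (Ranbp9). The share of all genes at that unadjusted threshold was not counted, so these 2 counts have no background beside them. The limma voom fit on the recovered reads called 37 members lower and 0 higher, against 2760 and 949 of all genes. With the receptor-gene level subtracted from each column, limma called 29 members and 2197 of all genes lower. Without that step, 2998 of all genes were called lower. The minimum mean was applied anew after that subtraction and whenever a replicate was left out. The number of genes tested could therefore differ, and the counts of all genes from those fits are not shares of the 8811. When an ESC replicate was left out, the spread came from the 2 NPC replicates alone. Members called lower were then 9 without either ESC replicate 1 or ESC replicate 2, beside 1117 and 1063 of all genes. Those that kept the call in both cases were Aaas, Ndc1, Nup133, Nup155, Nup37, Nup43, Nup93, Ranbp3 and Rangap1. All but Rangap1 are among the 17 members below 2 times the receptor-gene level in NPC replicate 1. For them, 1 of the 2 NPC values that give the spread lies near background. Members called lower were 43 and 55 without NPC replicates 1 and 2, beside 3911 and 5394 of all genes. Without NPC replicate 1, Kpna4, Tnpo1, Ranbp9 and Ipo13 lay higher in NPC. Kpna4 had a log2 fold change of 0.43 in that fit and of -0.71 without NPC replicate 2. Both NPC values lay below both ESC values in 53 of 57 members (93.0%), as they did in 55.5% of all genes. Both NPC values lay above both ESC values in Ranbp9 alone, as in 21.9% of all genes, and the groups overlapped in Kpna4, Tnpo1 and Ipo13. The median log2 fold change was -1.10 over the members and -0.43 over all genes, and -0.70 and -0.05 with the columns scaled to a common median. Adding 1 RPKM before the logarithm makes the intron fold changes of low genes smaller than they are.

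**Figure D2:**
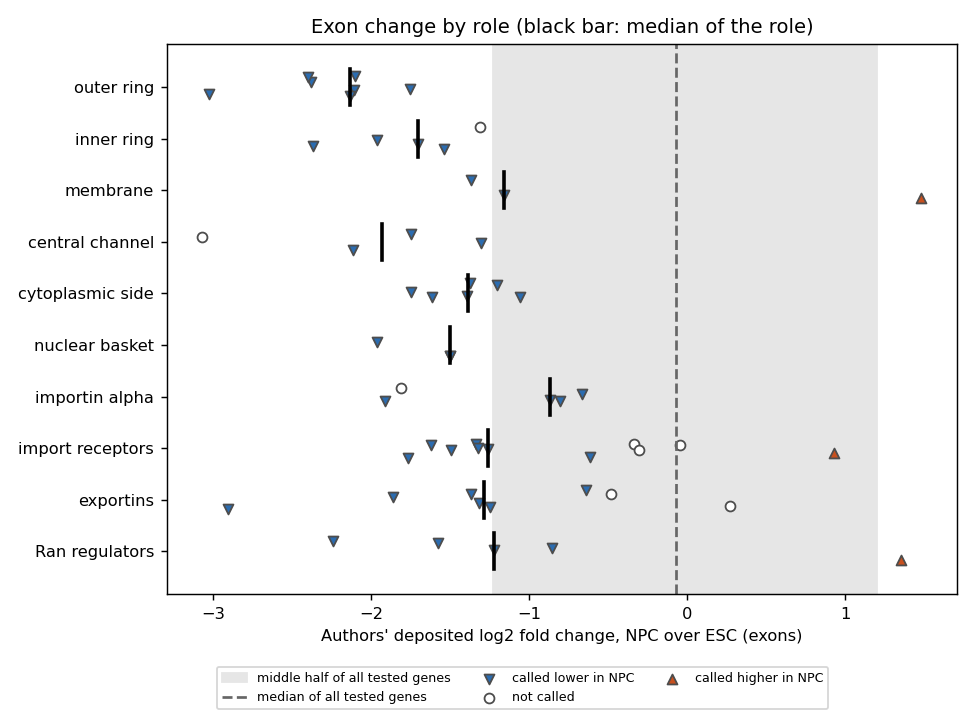
Deposited exon log2 fold change, NPC over ESC (horizontal axis), of the 57 tested members by role, with down triangles for genes called lower in NPC, up triangles for genes called higher and open circles for genes not called; black bars are role medians. The grey band is the middle part of all tested genes between the quartiles -1.23 and 1.20, and every outer ring member lies to the left of it.

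All 7 tested members of the outer ring, the Y-shaped complex of the pore scaffold, were lower in NPC, and their summed level in NPC was 0.247 of that in ESC in the authors' deposited table. Nup43, a peripheral subunit of the complex, had 9.02 RPKM in NPC and 67.0 RPKM in ESC, a log2 fold change of -3.03 with adjusted p = 2.13e-29 in the authors' deposited table. Nup133, a subunit of the stem of the complex that is needed for neural differentiation in mouse, had 21.2 RPKM in NPC and 101 RPKM in ESC (-2.38, adjusted p = 3.76e-24) there. Nup107, the highest of the group, had 40.95 RPKM in NPC and 158 RPKM in ESC in the authors' deposited table, a log2 fold change of -2.11. The smallest change was that of Seh1l, a subunit that also serves a nutrient-sensing complex, at -1.76. Nup160, Nup85 and Nup37 lay between, at -2.40, -2.13 and -2.11 in the authors' deposited table.

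All 7 outer ring genes were also called lower in introns by limma. Nup133 introns had 1.20 and 2.05 RPKM in NPC replicates 1 and 2, against 8.65 and 8.49 RPKM in ESC replicates 1 and 2. Every NPC value lay far below the ESC values, and the log2 fold change was -1.89 (SE 0.330, limma adjusted p = 0.000838). Nup43 introns had 1.30 and 0.706 RPKM in NPC, against 6.79 and 6.98 RPKM in ESC, on 68 and 33 reads in NPC and 353 and 409 reads in ESC. The groups did not overlap, with a log2 fold change of -1.99 (SE 0.265, limma adjusted p = 0.000146). In NPC replicate 1, both genes stood below 2 times the receptor-gene level, so the NPC value of that replicate is close to its background.

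The inner ring, which lies against the membrane and holds the channel nucleoporins, had 4 of 5 members called lower and 1 not called. Nup93, its central scaffold subunit, had 12.6 RPKM in NPC and 58.6 RPKM in ESC in the authors' deposited table (log2 fold change -2.37, adjusted p = 5.24e-23). Nup155, the highest of the group in ESC and in the mean of both cell types, had 22.9 RPKM in NPC and 67.9 RPKM in ESC there (-1.71), and Nup205 was the highest in NPC with 24.4 RPKM, against 63.7 RPKM in ESC. Nup188 and Nup205, large paralogous scaffold subunits, had log2 fold changes of -1.97 and -1.54 in the authors' deposited table. Nup93 introns had 1.23 and 0.859 RPKM in NPC, against 3.39 and 3.33 RPKM in ESC. No NPC value reached the ESC values, and the log2 fold change was -1.10 (SE 0.202, limma adjusted p = 0.00113). All 5 inner ring members were called lower at the intron level.

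Nup35, a membrane-binding inner ring subunit, was the member of the ring not called at the exon level, with 1.04 RPKM in NPC and 2.30 RPKM in ESC (log2 fold change -1.31, adjusted p = 0.0829) in the authors' deposited table. Its introns had 1.52 and 2.68 RPKM in NPC, against 4.62 and 5.24 RPKM in ESC (log2 fold change -0.96, SE 0.293, limma adjusted p = 0.0189), a call lost with no filter (limma adjusted p = 0.0534) and with the receptor-gene level subtracted (0.0704). The exon level was therefore below the intron level, at a ratio of 0.476 where the median gene had 9.62. A GENCODE transcript of another gene, Gm4353, is 99.6% identical to the Nup35 transcript over 1547 bases, and no source used here says how reads shared by such copies were counted. The exon level of Nup35 is uncertain for that reason.

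The membrane nucleoporins moved apart. Nup210, known in mouse as a nucleoporin needed for muscle and neural differentiation, had 21.7 RPKM in NPC and 7.17 RPKM in ESC in the authors' deposited table. This was a 2.795-fold higher level in NPC (log2 fold change 1.48, adjusted p = 2.14e-07 in the authors' deposited table), the largest rise among the tested members. Ndc1, a transmembrane anchor of the pore, had 20.1 RPKM in NPC and 47.8 RPKM in ESC there (log2 fold change -1.37), and Pom121, another anchor with FG repeats, had 5.91 RPKM in NPC and 12.5 RPKM in ESC (-1.16). In the authors' deposited table Nup210 was 44.7% of the summed level of the 4 membrane genes in NPC and 10.5% in ESC, and Ndc1 41.4% in NPC and 70.2% in ESC.

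The introns of Nup210 did not show the exon difference. They had 0.950 and 0.961 RPKM in NPC replicates 1 and 2, against 1.02 and 0.798 RPKM in ESC replicates 1 and 2, on 532, 482, 569 and 502 reads in the same order. The groups overlapped, and the mean was under the 1 RPKM needed for the test. The value of NPC replicate 1 was below 2 times its receptor-gene level. Ndc1 introns had 1.14 and 1.15 RPKM in NPC, against 3.89 and 4.43 RPKM in ESC. Their groups were apart, with a log2 fold change of -1.27 (SE 0.214, limma adjusted p = 0.000665). Pom121 was not called at the intron level (-0.63, limma adjusted p = 0.0527).

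Nup210l, a paralog of Nup210 best known from testis, had 0.806 RPKM in NPC and 0.688 RPKM in ESC in the exons of the authors' deposited table. Its introns were the highest of any member, with 19.2 and 44.3 RPKM in NPC, against 74.8 and 57.9 RPKM in ESC. Both NPC values lay below both ESC values, but the replicates spread widely and the gene was not called (log2 fold change -1.14, SE 0.853, limma adjusted p = 0.287). The ratio of exon to intron level was 0.0152, the lowest of the members. GENCODE annotates a small nucleolar RNA gene (Gm23723) and a small nuclear RNA gene (Gm24185) inside Nup210l, and whether their reads are among its intron reads was not tested. In all, 15 members have small RNA genes inside them. Besides Nup210l these are Ipo7, Kpna4, Nup205, Nup214, Nup35, Nup37, Nup54, Nupl1, Pom121, Ranbp1, Ranbp9, Tnpo2, Xpo5 and Xpot. Those in Nup35, Nup37 and Nup54, and Gm22474 in Xpo5, lie on the other strand.

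**Figure D3:**
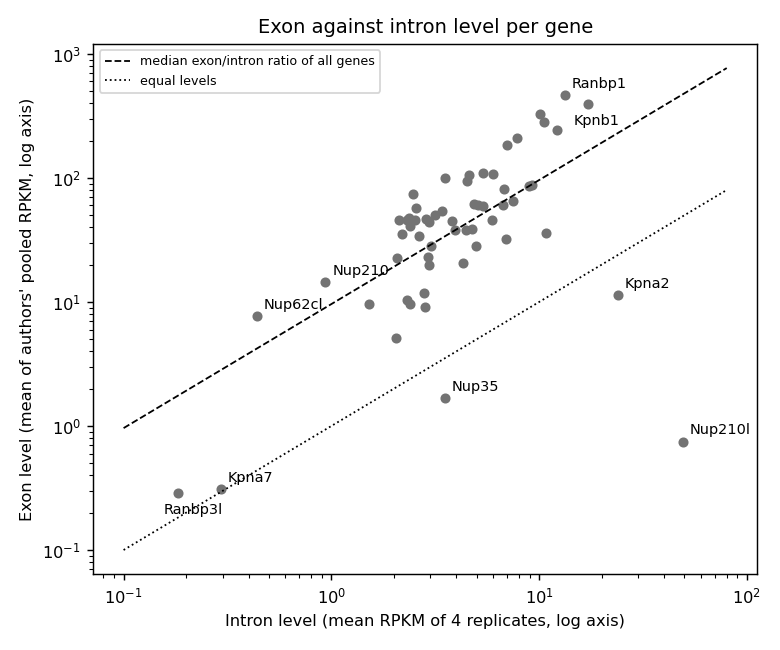
Exon level (vertical log axis, mean of the authors' pooled RPKM of both cell types) against intron level (horizontal log axis, mean RPKM of 4 replicates) of the members in both tables. The dashed line is the median ratio of all genes, 9.62; Nup210l, Kpna2 and Nup35 lie below the dotted line of equal levels.

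The FG nucleoporins of the central channel form the permeability barrier of the pore. Nup98, which also binds chromatin and mRNA export factors, had 15.3 RPKM in NPC and 60.6 RPKM in ESC in the authors' deposited table (log2 fold change -2.12, adjusted p = 2.72e-19). Nup54, the highest of the group and a partner of Nup62 in the channel complex, had 22.8 RPKM in NPC and 68.6 RPKM in ESC there (-1.75), and Nupl1, the remaining partner, had 22.2 RPKM in NPC and 49.7 RPKM in ESC (-1.30). Nup98 introns had 2.50 and 4.08 RPKM in NPC, against 5.09 and 6.08 RPKM in ESC. The groups did not overlap, and the gene was not called by limma (log2 fold change -0.64, SE 0.353, adjusted p = 0.154).

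Nup62 itself was measured in introns, with 1.78 and 3.97 RPKM in NPC, against 14.3 and 14.5 RPKM in ESC. Both NPC values were far below both ESC values (log2 fold change -2.05, SE 0.481, limma adjusted p = 0.00481). Nup62cl, a short Nup62 relative on the X chromosome, had 0.874 RPKM in NPC and 14.5 RPKM in ESC in the authors' deposited table, with a log2 fold change of -3.07 that was not called (adjusted p = 0.148). Its introns had 1.13 and 0.176 RPKM in NPC, against 0.277 and 0.172 RPKM in ESC. The high value of NPC replicate 1 was below 2 times the receptor-gene level of that replicate, and the other 3 replicates were alike.

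All 6 nucleoporins of the cytoplasmic side, where export complexes are taken apart, were lower in NPC. Ranbp2, the large filament protein that binds Ran and SUMO-modified RanGAP1, was the highest, with 126 RPKM in NPC and 295 RPKM in ESC in the authors' deposited table (log2 fold change -1.39, adjusted p = 8.29e-10). Aaas, a WD-repeat nucleoporin mutated in human triple A syndrome, had 13.8 RPKM in NPC and 42.7 RPKM in ESC there (-1.75). Rae1, Nup214, Nup88 and Nupl2 had log2 fold changes of -1.62, -1.38, -1.21 and -1.06 in the authors' deposited table. At the intron level 5 of the 6 were called lower. Ranbp2 was the exception, with 3.67 and 8.56 RPKM in NPC, against 9.52 and 9.63 RPKM in ESC. The NPC replicates differed more from each other than NPC replicate 2 did from the ESC, and limma did not call it (-0.66, SE 0.529, adjusted p = 0.319).

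The nuclear basket, which faces chromatin, was lower in all 3 members. Tpr, the filament protein of the basket, had 188 RPKM in NPC and 473 RPKM in ESC in the authors' deposited table (log2 fold change -1.50, adjusted p = 3.29e-12), and was the highest nucleoporin in both cell types. Nup153, a basket FG nucleoporin that binds Sox2 in mouse neural progenitors, had 39.2 RPKM in NPC and 138 RPKM in ESC there (-1.97, adjusted p = 6.04e-18). Nup50, a mobile nucleoporin that helps to release cargo from importin alpha, had 59.35 RPKM in NPC and 154 RPKM in ESC in the authors' deposited table (-1.50). Tpr introns had 3.27 and 6.76 RPKM in NPC, against 14.7 and 15.8 RPKM in ESC, and were called (-1.50, SE 0.559, limma adjusted p = 0.0448), though not at a pseudocount of 0.1 (limma adjusted p = 0.0574) or with the receptor-gene level subtracted (0.0784). Nup50 introns had 1.93 and 2.62 RPKM in NPC, against 6.81 and 7.04 RPKM in ESC, and were called as well (-1.28, SE 0.327, limma adjusted p = 0.0076). Nup153 introns had 3.25 and 6.89 RPKM in NPC, against 13.4 and 13.6 RPKM in ESC. Their groups were apart but the NPC replicates spread, and limma did not call the gene (-1.33, SE 0.544, adjusted p = 0.0640).

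**Figure D4:**
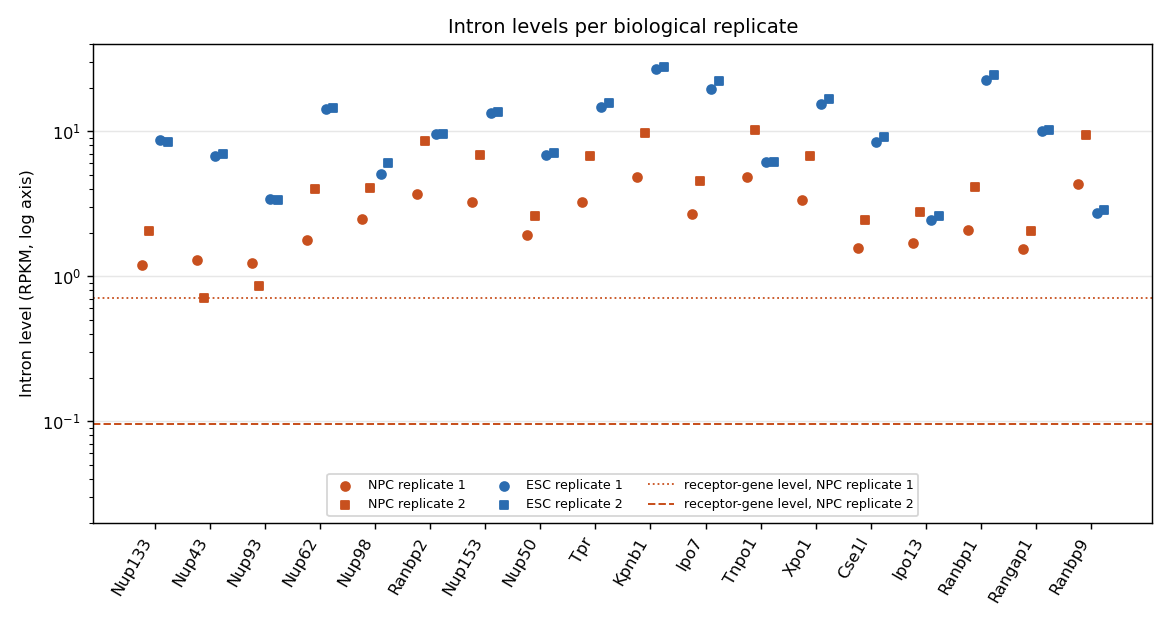
Intron level (vertical log axis, RPKM) of 18 members in each biological replicate, NPC left and ESC right within each gene; dotted and dashed lines are the receptor-gene levels of NPC replicate 1 (0.712 RPKM) and NPC replicate 2 (0.0957 RPKM). NPC points lie below ESC points except in Tnpo1 and Ipo13, where they overlap, and in Ranbp9, where they lie above.

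Importin alpha proteins bind the classical nuclear localisation signal and link cargo to importin beta, and their subtypes differ in cargo. In mouse ESC, loss of Kpna2 and gain of Kpna1 have been described as a subtype switch in neural differentiation. Here Kpna1 was the subtype with the largest called decrease, with 21.1 RPKM in NPC and 71.45 RPKM in ESC in the authors' deposited table (log2 fold change -1.92, adjusted p = 1.08e-15). Kpna3, Kpna4 and Kpna6 fell less, with 56.1, 68.1 and 37.5 RPKM in NPC and 92.5, 105 and 54.2 RPKM in ESC in the authors' deposited table (log2 fold changes -0.87, -0.81 and -0.67). Kpna7, an oocyte and early embryo subtype in mouse, had 0.3785 RPKM in NPC and 0.2455 RPKM in ESC there and was not tested. The share of Kpna1 in the summed importin alpha level was 11.2% in NPC and 20.9% in ESC in the authors' deposited table. Kpna4 held 36.2% in NPC and 30.8% in ESC, Kpna3 29.8% in NPC and 27.1% in ESC, and Kpna6 19.95% in NPC and 15.9% in ESC of the authors' deposited table.

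Kpna2 had 5.04 RPKM in NPC and 17.7 RPKM in ESC in the authors' deposited table and was not called (log2 fold change -1.81, adjusted p = 0.102). Its introns had 5.07 and 12.7 RPKM in NPC, against 38.6 and 39.3 RPKM in ESC, the highest intron level of the family in ESC. Both NPC values lay below the ESC values, and the gene was called lower (log2 fold change -2.13, SE 0.762, limma adjusted p = 0.0375), a call lost with no filter (limma adjusted p = 0.0501). The ratio of exon to intron level was 0.475. GENCODE holds transcripts of 11 other genes with at least 90% identity to the Kpna2 transcript over at least 500 bases, 1 of them, Gm10184, 99.9% identical over 1968 bases, and processed copies have no introns. The exon level of Kpna2, and so its share of 2.68% in NPC and 5.18% in ESC in the authors' deposited table, is uncertain. In all, 13 of 61 members with a GENCODE transcript had such a match to a transcript of another gene. Besides Kpna2 and Nup35 these were Ipo4, Ipo5, Nup50, Nup54, Pom121, Rae1, Ranbp1, Tnpo1, Tpr, Xpo4 and Xpot. For Ipo4 the match was a transcript of Gm49378 annotated as nonsense-mediated decay, 100% identical over 2310 bases. For Pom121 it was a retained-intron transcript of Nsun5, 100% identical over 665 bases. Transcripts that overlap a member at its own locus were not told apart from copies elsewhere, so these matches need not be copies.

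Kpna1 introns had 1.33 and 1.57 RPKM in NPC, against 2.61 and 2.93 RPKM in ESC, a called decrease (log2 fold change -0.62, SE 0.201, limma adjusted p = 0.0241). That call was lost with the columns scaled to a common median (-0.25, limma adjusted p = 0.162), with the receptor-gene level subtracted (limma adjusted p = 0.101), with no filter (0.0848) and with no trend (0.0662). Kpna4 introns had 5.11 and 12.5 RPKM in NPC, against 8.69 and 9.32 RPKM in ESC. The NPC replicates enclosed the ESC values, and the log2 fold change was -0.14 (SE 0.576, limma adjusted p = 0.854), turning to 0.43 without NPC replicate 1 (limma adjusted p = 0.0279). Kpna3 introns had 1.79 and 2.31 RPKM in NPC, against 2.76 and 3.05 RPKM in ESC, and Kpna6 introns 1.81 and 2.21 RPKM in NPC, against 2.69 and 2.51 RPKM in ESC. Neither was called (log2 fold changes -0.36 and -0.26, limma adjusted p = 0.204 and 0.336), and both signs turn with the columns scaled to a common median.

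**Figure D5:**
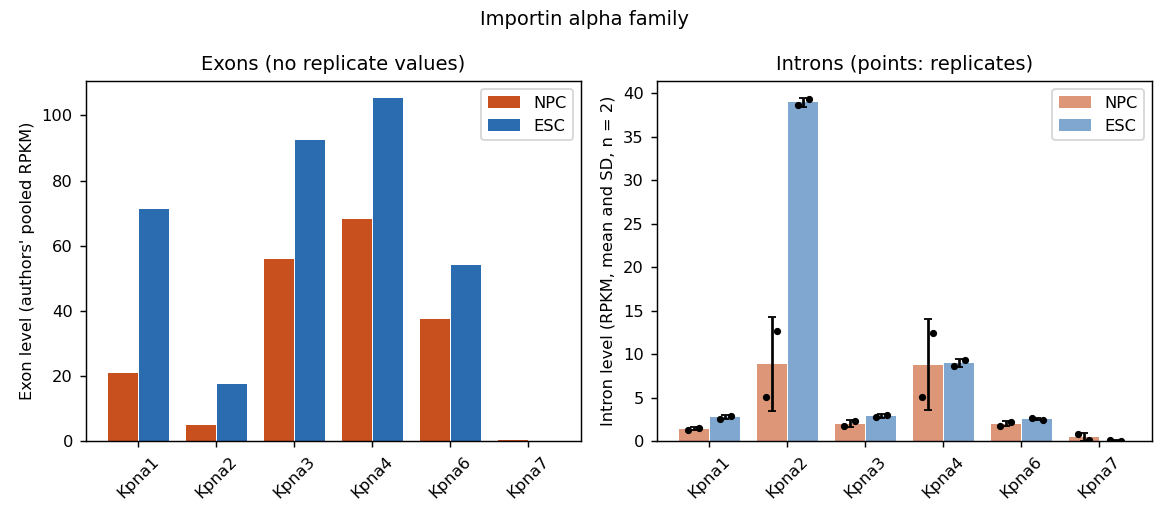
Importin alpha family: exon level (left, authors' pooled RPKM, no replicate values) and intron level (right, RPKM, bars are means, whiskers SD, points the 2 replicates), NPC left of ESC in each pair. Kpna4 and Kpna3 lead in exons of both cell types, and Kpna2 introns reach 38.6 and 39.3 RPKM in ESC.

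Of 11 import receptors of the importin beta family, 7 were lower, 1 was higher and 3 were not called. Kpnb1, importin beta 1, carries importin alpha and its cargo and was the highest receptor, with 195 RPKM in NPC and 598 RPKM in ESC in the authors' deposited table (log2 fold change -1.77, adjusted p = 4.33e-16). Ipo7 and Ipo5, carriers of ribosomal proteins and histones, had 153 and 113 RPKM in NPC and 339 and 257.5 RPKM in ESC there (-1.32 and -1.34). Tnpo3, which imports splicing factors rich in serine and arginine, and Tnpo2, which imports RNA-binding proteins, had log2 fold changes of -1.49 and -1.62 in the authors' deposited table. Ipo4 and Ipo8 had -1.26 and -0.62 there. Ranbp6, whose introns were not analysed here, had 46.3 RPKM in NPC and 21.8 RPKM in ESC in the authors' deposited table, a 1.90-fold higher level in NPC (log2 fold change 0.93, adjusted p = 0.000319).

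Tnpo1, the transportin that imports proteins with a proline-tyrosine signal, had 84.3 RPKM in NPC and 78.35 RPKM in ESC in the authors' deposited table, with a log2 fold change of -0.04 (adjusted p = 0.893). Its sign is 0.10 when taken from the RPKM with 1 added, since RPKM ratios lie a median of 0.14 above the deposited fold changes. In summed import receptor level it held 10.8% in NPC and 4.87% in ESC of the authors' deposited table, while Kpnb1 held 24.9% in NPC and 37.2% in ESC. Ipo11 and Ipo9 were also not called, at log2 fold changes of -0.34 and -0.31 in the authors' deposited table.

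Kpnb1 introns had 4.85 and 9.70 RPKM in NPC, against 26.9 and 27.6 RPKM in ESC. All NPC values were well below the ESC values (log2 fold change -1.84, SE 0.686, limma adjusted p = 0.0447), but the call was lost at a pseudocount of 0.1 (limma adjusted p = 0.0512) and with the receptor-gene level subtracted (0.0605). Ipo7 introns had 2.70 and 4.51 RPKM in NPC, against 19.5 and 22.3 RPKM in ESC (-2.28, SE 0.553, limma adjusted p = 0.00583). Tnpo1 introns had 4.84 and 10.1 RPKM in NPC, against 6.10 and 6.13 RPKM in ESC. The NPC values enclosed those of ESC, and no difference was called (0.18, SE 0.489, limma adjusted p = 0.777). Ipo11, not called in exons, had introns of 1.35 and 1.27 RPKM in NPC, against 3.25 and 3.69 RPKM in ESC, and was called lower (-0.95, SE 0.208, limma adjusted p = 0.00321).

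Exportins and receptors that work both ways had 6 of 8 tested members lower at the exon level. Xpo1 (CRM1), the exporter of proteins with leucine-rich signals, led the group at 168 RPKM in NPC and 394 RPKM in ESC in the authors' deposited table (log2 fold change -1.37, adjusted p = 7.71e-09). It held 51.7% of the summed exportin level in NPC and 51.3% in ESC of the authors' deposited table. Cse1l, which returns importin alpha to the cytoplasm, had 50.9 RPKM in NPC and 169 RPKM in ESC there (-1.86, adjusted p = 3.35e-14). Ranbp17, a relative of Xpo7, had 2.63 RPKM in NPC and 18.04 RPKM in ESC in the authors' deposited table (-2.91, adjusted p = 5.49e-26), the largest decrease of the group. Xpo5, exporter of microRNA precursors, Xpot, exporter of tRNA, and Xpo7 had log2 fold changes of -1.32, -1.25 and -0.64 in the authors' deposited table. Xpo6, the actin exporter, at -0.48 and Ipo13, a receptor for both directions, at 0.27 were not called there.

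Xpo1 introns had 3.38 and 6.78 RPKM in NPC, against 15.3 and 16.7 RPKM in ESC. The groups were apart, with a log2 fold change of -1.54 (SE 0.566, limma adjusted p = 0.0418), and the call was lost at a pseudocount of 0.1 (limma adjusted p = 0.0537) and with the receptor-gene level subtracted (0.0733). Cse1l introns had 1.57 and 2.43 RPKM in NPC, against 8.44 and 9.16 RPKM in ESC (-1.72, SE 0.351, limma adjusted p = 0.00209). Ranbp17 introns had 1.37 and 1.52 RPKM in NPC, against 3.17 and 3.19 RPKM in ESC, on 2113 and 2104 reads in NPC and 4877 and 5532 in ESC over the longest introns of the members. They were called lower (-0.78, SE 0.206, limma adjusted p = 0.00937), and in NPC replicate 1 the value was below 2 times the receptor-gene level. The Ranbp17 call was lost with scaled columns (-0.40, limma adjusted p = 0.0596), with the receptor-gene level subtracted (0.0626) and with voom on the recovered reads (0.0600). Xpo4 introns had 1.49 and 1.96 RPKM in NPC, against 5.79 and 6.66 RPKM in ESC (-1.41, SE 0.287, limma adjusted p = 0.00208). Ipo13 introns had 1.70 and 2.78 RPKM in NPC, against 2.43 and 2.62 RPKM in ESC, so the groups overlapped and no difference was called (-0.14, SE 0.236, limma adjusted p = 0.643).

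Among Ran regulators and other Ran-binding proteins, 4 of 5 tested were lower and 1 was higher. Ranbp1, which releases Ran from transport complexes, had the highest exon level of all members in ESC, with 171 RPKM in NPC and 762 RPKM in ESC in the authors' deposited table (log2 fold change -2.24, adjusted p = 4.84e-13). Rangap1, which activates the GTPase of Ran, had 69.3 RPKM in NPC and 146 RPKM in ESC there (-1.22), and Ranbp3, a cofactor of Xpo1, had 25.2 RPKM in NPC and 68.2 RPKM in ESC (-1.58). Ranbp10, a close relative of Ranbp9, had 7.34 RPKM in NPC and 12.1 RPKM in ESC in the authors' deposited table (-0.86), while Ranbp9 had 91.8 RPKM in NPC and 32.3 RPKM in ESC, a 2.56-fold higher level (1.35, adjusted p = 2.41e-08). Ranbp3l had 0.507 RPKM in NPC and 0.0728 RPKM in ESC there and was not tested.

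Ranbp1 introns had 2.09 and 4.12 RPKM in NPC, against 22.5 and 24.4 RPKM in ESC. Both NPC values were far below the ESC values, and the log2 fold change of -2.62 was the largest decrease of any tested member (SE 0.557, limma adjusted p = 0.00273). Rangap1 introns had 1.54 and 2.06 RPKM in NPC, against 10.1 and 10.2 RPKM in ESC (-2.001, SE 0.354, limma adjusted p = 0.000903). Ranbp9 introns had 4.35 and 9.42 RPKM in NPC, against 2.73 and 2.86 RPKM in ESC. It was the only tested member with both NPC values above both ESC values, and it missed the threshold (0.98, SE 0.390, limma adjusted p = 0.0581).

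The other transport genes listed for the same pathway moved in the same direction as most members. These were 22 genes of Ran, its exchange factor and carrier, mRNA export and pore assembly. The authors' deposited table called 18 of them lower, 2 higher and 2 not, with a median log2 fold change of -1.28. Of all tested genes that table called 33.9% lower and 32.3% higher, with a median of -0.07. Ran itself had 159 RPKM in NPC and 396 RPKM in ESC there (-1.57), and Rcc1, the exchange factor that loads Ran on chromatin, had 17.1 RPKM in NPC and 55.4 RPKM in ESC (-1.91). Ahctf1 (ELYS), which seeds pores on chromatin after mitosis, had 27.9 RPKM in NPC and 192 RPKM in ESC in the authors' deposited table (-2.92), and Mcm3ap, an mRNA export scaffold, 25.6 RPKM in NPC and 164.5 RPKM in ESC (-2.82). The 2 higher genes were Nxt2, a cofactor of mRNA export, at a log2 fold change of 1.96 and Eny2, a subunit of export and chromatin complexes, at 0.69 in the authors' deposited table. Ran introns had 12.5 and 18.2 RPKM in NPC, against 67.0 and 70.5 RPKM in ESC, and limma did not call them (-2.11, adjusted p = 0.05001, above the threshold).

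Chromosomes differed as wholes between the cell types. The median log2 fold change over all tested genes of a chromosome in the authors' deposited table was -0.52 on chromosome 8, -0.41 on chromosome 19, -0.27 on chromosome 1 and 0.39 on chromosome 12, and between -0.35 and 0.26 on the others. Chromosome 8 carries Nup133, Nup93, Tnpo2 and Ranbp10, chromosome 19 carries Ranbp6, and chromosome 1 carries Tpr and Ipo9. Without chromosomes 1, 8, 12 and 19, a choice made after seeing the data, 41 of 50 tested members were called lower (82.0%) and 2 higher, against 33.1% of 10250 genes called lower. Chromosome X, at -0.35, stayed in that count and carries Nup62cl, which was not called. Chromosome 6, at 0.26, stayed as well and carries Nup210, called higher, and Nup205, Ipo8 and Tnpo3, called lower. The part of chromosome-wide differences in the result was not tested. Members also share starts with neighbours: 7 of 61 (11.5%) have a gene on the other strand starting within 1000 bp, against 7.85% of all genes in the intron table. Of those 7 neighbours 5 were tested, and 2, Atf5 beside Nup62 and Trmt2a beside Ranbp1, were called lower in the authors' deposited table. That table called 33.9% of all tested genes lower. Parpbp, Rpain and Polh, beside Nup37, Nup88 and Xpo5, were not called there (log2 fold changes -0.53, 0.48 and 0.47).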

How the data were processed

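The authors deposited an exon table with RPKM pooled by cell type, an adjusted p-value and a log2 fold change whose sign follows NPC over ESC, per the file headers and values. The submitters' processing notes name DESeq2 1.10.0 and build mm9. No source used here names the aligner, the counter, the annotation or whether strand was used. A second deposited table holds an intron value per biological replicate, with technical libraries combined by the authors. Its unit, RPKM, was inferred from the values, which are whole multiples of a step per gene. Whole reads came back for 18393 named genes within a tolerance of 0.001 reads, with 1 solution for the intron length in 16893 of them and several in 1500. The column denominators were 5792056 and 5186790 reads in NPC replicates 1 and 2 and 5767704 and 6500767 in ESC replicates 1 and 2. The reads behind the exon values are unknown, and 84 exon rows without a name were left out.

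Exon calls were read from the deposited adjusted p-value at 0.05, leaving out unnamed genes and genes whose mean of NPC and ESC was under 1 RPKM. Introns above the same minimum were tested with limma 3.58.1 (mean-variance trend, R 4.3.3) on log2(RPKM + 1) with Benjamini-Hochberg adjustment over all genes, NPC against ESC, 2 replicates each. The receptor-gene level is the mean of a column over receptor genes with 10% trimmed at each end. Replicate numbers were not treated as pairs, since no label pairs the samples across cell types. Deviations of same-numbered replicates from their group means correlated at 0.019 over 8811 genes. NPC replicate 2 exceeded NPC replicate 1 by a median of 0.42 on the log2 scale where the ESC replicates differed by 0.01. With 2 replicates per cell type, these values cannot exclude a shared batch.

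Promoter windows came from RefSeq (GRCm38.p6), matched by symbol. Near-identical transcripts of other genes came from blastn 2.17.0 of GENCODE M21 transcripts, with overlaps at the same locus left in. Counts, medians and shares were made with Python 3.11.15 and pandas 2.3.3. Members and gene lists were chosen with earlier results of these data known. Named with values were the importin alpha family whole, the member of each role with the largest change in each direction and the highest level, and a preset list of genes. Other names complete a count, a range or a set of promoters.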

Additional observations from a re-analysis of the deposited data

How the results depend on the processing

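The 46 lower and 3 higher members of the exon table became 40 to 43 and 2 to 3 under the alternatives that could move them. These were a mean of at least 10 RPKM, a threshold of 0.01, a 2-fold minimum and 4 chromosomes left out. Dropping the filter and centring kept 46 and 3, but neither could change the counts. The members added without the filter had deposited adjusted p-values of 0.174 or more. Centring changed no p-value and shifted fold changes only by the median of all tested genes, -0.07. For introns, the 0 members called higher by limma became 1 at a mean of at least 0.2 RPKM (Ranbp9), 2 with the columns scaled to the same median (Ranbp9 at 1.42 with adjusted p = 0.00362, and Tnpo1 at 0.66 with adjusted p = 0.0496), and 0 to 3 when 1 replicate was left out. The 41 called lower became 9 to 55 when 1 replicate was left out, and 29 to 40 under the other alternatives. Of the 41, 32 lost the call without an ESC replicate, and 14 under an alternative that left out no replicate and used no block (Ipo4, Kpna1, Kpna2, Kpnb1, Nup188, Nup205, Nup214, Nup35, Nup88, Nupl2, Ranbp17, Tpr, Xpo1 and Xpo6). Leaving out 1 replicate leaves a lone sample that is assumed to vary like the other group. Fits with the replicate number as a block called 33 members lower and 0 higher, though no label pairs the numbers across cell types. A limma voom fit on the recovered reads, added after seeing the data, called 37 and 0. Over all genes, the 1167 called higher became 2251 at a mean of at least 0.2 RPKM, 2260 scaled, 456 with the receptor-gene level subtracted, 753 without a trend and 695 to 2165 with 1 replicate left out, and the 2998 called lower became 1063 to 5394 with 1 replicate left out. The minimum mean was applied anew in fits with a level subtracted or a replicate left out, so the number of genes tested could differ. The causes were not tested.

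Signs turned in genes not called with all replicates: the exon change of Tnpo1 was 0.10 from RPKM with 1 added, and scaling the columns gave intron changes of 0.24 for Ipo13, 0.10 for Ipo8, 0.053 for Ipo9, 0.032 for Kpna3, 0.35 for Kpna4, 0.13 for Kpna6, 0.009 for Ranbp10 and 0.16 for Xpo7. With 1 replicate left out, the intron change lay between -0.38 (without NPC replicate 2) and 0.10 (without NPC replicate 1) for Ipo13, between -0.71 and 0.43 for Kpna4, and between -0.28 and 0.65 for Tnpo1, each at its low end without NPC replicate 2. Kpna4 and Tnpo1 thus pointed up without NPC replicate 1 and down without NPC replicate 2. Pooled exon values carry no replicate error, and the NPC intron values of 17 members lie near the receptor-gene level of replicate 1, which limits the size of those changes. One clone and 2 replicates per cell type limit the rest.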
